A study of Rattus norvegicus with 8 samples.

Results

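Tumour necrosis factor (TNF) signalling and the feedback loop of the transcription factor NF-kB were followed in 7 genes of 32623 measured genes in the injured rat spinal cord. They were chosen by symbol: the ligand Tnf, the receptors Tnfrsf1a and Tnfrsf1b, the feedback genes Tnfaip3, Nfkbia and Nfkbiz, and the subunit Nfkb1. The study asked how the cells of the cord differ with the severity of a contusion, and it profiled single cells of female Wistar rats aged 8 weeks by droplet-based RNA sequencing of 3′ ends. A weight of 10 g was dropped on the cord at the ninth thoracic vertebra from 12.5 mm in the mild group, from 25 mm in the moderate group and from 50 mm in the severe group, whereas the sham group had laminectomy alone. All 4 groups received buprenorphine for 3 days and cefazolin for 7 days, and a 10 mm segment was taken 7 days after the operation. Each group had 2 libraries, so there were 8 in all. The methods and results speak of as many sequenced cords as there are libraries, which gives 1 cord per library, but the labels name no animals. Except where stated, the p-values below measure the spread between these libraries.

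After filtering, 60135 of 68658 deposited cells remained, with 2524 to 10857 cells per library and 31482153 to 131045446 deposited unique molecular identifiers (UMIs, counts of captured RNA molecules) per library. Cells were sorted in silico into 13 gates by marker genes, and a gate is named here by its markers ("neutrophil-gated" and so on). All 14 macrophage/microglia markers and all 14 neutrophil markers were highest in their own gate. Other gates were less clean: 7 of 11 markers were highest in their own gate for oligodendrocyte precursors. The numbers were 8 of 12 for astrocytes, 8 of 12 for neurons and 10 of 12 for dendritic cells. The astrocyte gate was led partly by genes of ciliated cells. The sham libraries differed from each other in composition: 59.9% of the first were neutrophil-gated and 5.13% macrophage/microglia-gated, against 0.119% and 90.1% of the second. The neutrophil-gated cells of the first sham library also stood apart from all others, with a summed neutrophil marker level of 255982 CPM (UMI counts scaled to the UMI total of the gate in that library) against 45886 to 56382 CPM in the injured libraries. Across libraries, 410 barcodes occurred more than once (826 cells).

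TNF is a cytokine that myeloid cells release quickly after tissue damage. It binds TNFR1, encoded by Tnfrsf1a and present on most cell types, and TNFR2, encoded by Tnfrsf1b and found mainly on immune and endothelial cells. Both receptors can activate NF-kB, a family of dimers in which the Nfkb1 product p50 commonly partners with RelA. NF-kB then switches on its own feedback genes. Nfkbia encodes IκBα, which holds NF-kB in the cytoplasm. Tnfaip3 encodes A20, a ubiquitin-editing enzyme that shuts down signalling below the receptor, and Nfkbiz encodes IκBζ, a nuclear regulator that modulates a subset of NF-kB target genes. Transcripts of these 3 genes are widely read as a record of recent NF-kB activity.

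The start regions of 4 members, the 3 feedback genes and Nfkb1, carry the letters that NF-kB dimers recognise, and the stretches that hold them are printed here. RefSeq (build GRCr8) gave a window of 250 bases before to 50 bases after the start of all 7 genes. The κB consensus of 10 bases, searched on both strands, was found in 4 of the 7 windows and in 7.51% of 33469 windows of the same length. The stretches below run 5′ to 3′ on the gene's strand with the matches in capitals.
Tnfaip3, chr1:15544005-15544169, minus strand: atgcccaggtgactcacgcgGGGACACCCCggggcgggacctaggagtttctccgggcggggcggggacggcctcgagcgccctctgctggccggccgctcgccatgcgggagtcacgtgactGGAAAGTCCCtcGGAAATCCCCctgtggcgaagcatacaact
Nfkbia, chr6:78597074-78597123, minus strand: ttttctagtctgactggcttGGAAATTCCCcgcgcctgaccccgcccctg
Nfkbiz, chr11:58251688-58251720, plus strand: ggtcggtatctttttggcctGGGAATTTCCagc
Nfkb1, chr2:226805440-226805469, minus strand: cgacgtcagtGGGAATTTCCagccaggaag
Tnfaip3 held 3 placements, beginning 170, 67 and 55 bases before the start. Nfkbia held 1 at 31 bases and Nfkbiz 1 at 13 bases before the start, while that of Nfkb1 began 4 bases after it. No match was found in the windows of Tnf, Tnfrsf1a and Tnfrsf1b, which says only that these letters are not in those 300 bases. The libraries give no measure of binding, so a match describes the sequence and not a site in use.

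Tnf, the ligand, was mostly a transcript of macrophage/microglia-gated cells by number of molecules. Of 2179 Tnf UMIs in all kept cells, 1818 (83.4%) lay in that gate and 125 (5.74%) in the neutrophil gate. A further 182 lay in cells with markers of more than 1 type and 35 in cells with too few markers, and no other gate held more than 5. The second severe library alone gave 1579 of these UMIs. Without it the shares were 79% in the macrophage/microglia gate and 10.2% in the neutrophil gate (474 and 61 of 600 UMIs). Without the first severe library they were 86.2% and 3.67%, and both checks were added after the pooled shares were seen. In macrophage/microglia-gated cells Tnf stood at 0.630 and 5.70 CPM in the sham libraries, 0.581 and 0.491 in mild, 0.815 and 1.60 in moderate, and 7.46 and 19.3 in severe. The severe libraries were thus higher than the other 6, and the second sham library came next. In neutrophil-gated cells the level was 0.224 CPM in the first sham library, 0 in both mild libraries, 0 and 2.76 in moderate, and 19.9 and 33.7 in severe. The second sham library held 3 neutrophil-gated cells and was not used. Averaged over libraries as log2(CPM + 1), the gates ranked macrophages/microglia, neutrophils, astrocytes and dendritic cells, and no neighbouring pair differed by more than the larger of its spreads. With a pseudocount of 10 the first 2 changed places. The places of astrocytes and dendritic cells rest on 1 Tnf UMI each.

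The share of cells with at least 1 Tnf UMI followed the groups in the same way. In macrophage/microglia-gated cells it was 0.587% and 5.58% in sham, 0.815% and 0.637% in mild, 0.811% and 1.88% in moderate, and 8.55% and 19.7% in severe. The Wilson 95% intervals of the severe libraries ran from 7.05% to 10.3% and from 18.5% to 20.9%, and they cover counting error only. Oligodendrocyte-gated cells, which are not a known source of Tnf, had a Tnf UMI in 0 of 82 and 2 of 284 cells of the same libraries (0.704% in the second, Wilson upper bounds 4.48% and 2.53%). Their median depths of 14959 and 18140.5 UMIs per cell were close to the 14920 and 17567 UMIs of the macrophage/microglia-gated cells. Neutrophil-gated cells held far less RNA, with medians of 1591.5 and 1664.5 UMIs in the severe libraries, and 3.94% and 6.70% of them had a Tnf UMI.
When every cell was thinned to 1000 UMIs, the order of the 2 gates turned. The share was then 0.767% and 1.85% in the macrophage/microglia gate (1063 of 1123 and 3745 of 4201 cells deep enough) and 2.05% and 3.31% in the neutrophil gate (1114 of 1168 and 750 of 776 cells). At equal depth and in CPM alike, Tnf was therefore denser in neutrophil-gated than in macrophage/microglia-gated cells of both severe libraries. This difference had no test across genes, since Tnf did not pass the filter on low counts in that comparison. Over the 7 libraries with both gates it was higher in 3 and lower in 4 (exact sign-flip permutation p = 0.969, two-sided).

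**Figure D1:**
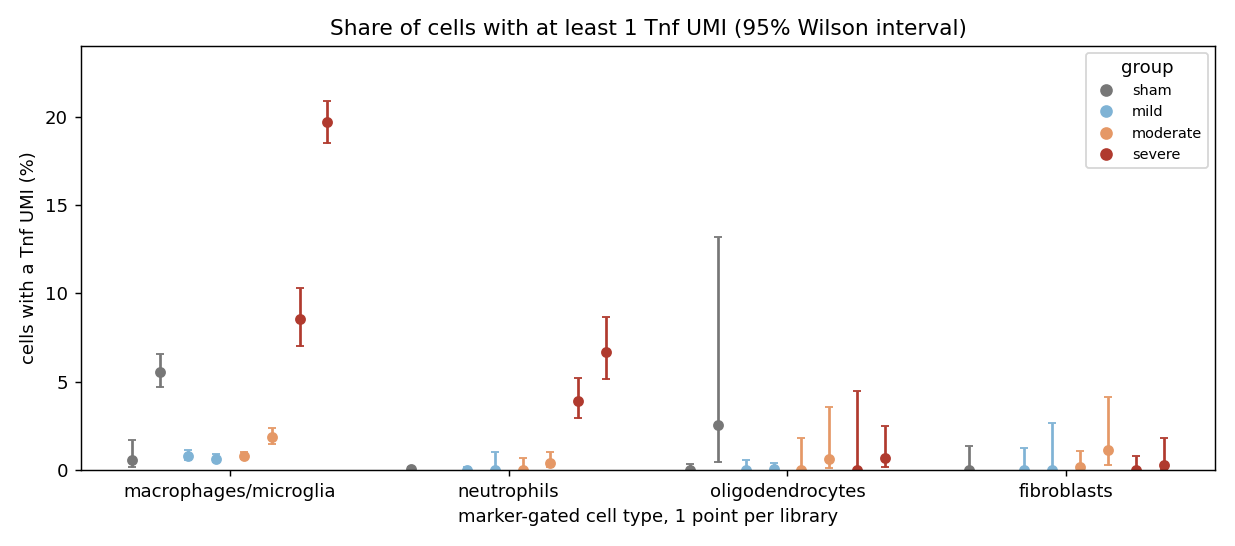
Percent of cells with at least 1 Tnf UMI in each library, for the gates with most Tnf and for gates that should lack it, with Wilson 95% intervals. The severe libraries of the macrophage/microglia gate sit at 8.55% and 19.7%, above the other 6.

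The receptor Tnfrsf1a was spread widely, and its highest mean levels were in neutrophils and fibroblasts. Gates are ordered here and below by their mean log2(CPM + 1), and a step between neighbours is set against the larger SD on that scale. In neutrophil-gated cells it stood at 85.0 CPM in the first sham library, 171 and 116 in mild, 122 and 126 in moderate, and 141 and 143 in severe. In fibroblast-gated cells it ranged from 104 to 193 CPM over 7 libraries, and in macrophage/microglia-gated cells from 36.7 to 64.6 CPM over 8. Neutrophils (mean 129 ± 26.7 CPM, SD, n = 7) and fibroblasts (127 ± 31.4 CPM, SD, n = 7) did not differ beyond their spread, and both lay above endothelial cells (90.4 ± 17.5 CPM, SD, n = 4). Oligodendrocyte precursors and astrocytes followed, then macrophages/microglia (49.4 ± 9.57 CPM, SD, n = 8), oligodendrocytes and the lymphoid gates. Within libraries, where each gate was set against macrophages/microglia, Tnfrsf1a was higher in neutrophils by 1.63 (SE 0.16) on the log2 scale, in fibroblasts by 1.06 (SE 0.12) and in endothelial cells by 0.82 (SE 0.22), all past the threshold of 0.05 for the edgeR adjusted p. The call in endothelial cells was lost without either severe library (0.67 and 0.70). It was lower in T cells/NK cells (-1.54, SE 0.21) and in B cells (-3.09, SE 0.48), where 3 of 274 cells had a Tnfrsf1a UMI. Cell types differ in most genes, so these calls have a high background: 63.5% of genes were called in neutrophils, 62.3% in fibroblasts, 40.3% in endothelial cells, 59.3% in T cells/NK cells and 36% in B cells.

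Tnfrsf1b, the second receptor, had a narrower range of cell types. It stood at 65.2 CPM in neutrophil-gated cells of the first sham library, 37.7 and 63.7 in mild, 62.7 and 86.9 in moderate, and 51.5 and 50.5 in severe. T cells/NK cells came next (34.1 ± 21.4 CPM, SD, n = 7), beyond the spread below neutrophils, followed by macrophages/microglia (17.3 ± 4.92 CPM, SD, n = 8), which did not differ from T cells/NK cells beyond the spread. Levels were at most 2.64 CPM in oligodendrocytes and their precursors. Against macrophages/microglia of the same libraries, Tnfrsf1b was higher in neutrophils (log2 difference 1.91, SE 0.19, edgeR adjusted p = 4.05e-06) and in T cells/NK cells (0.66, SE 0.22, edgeR adjusted p = 0.0187). The call in T cells/NK cells was lost without either moderate library or the first severe one (0.48 to 0.58). In oligodendrocytes and their precursors the log2 differences of Tnfrsf1b to macrophages/microglia were -4.71 and -4.995, while those of Tnfrsf1a were -1.21 and -0.31, the latter turning to 0.45 with scaling by library size alone. The neutrophil gate ranked first for both receptors.

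Among the feedback genes and the subunit, leukocyte gates had the highest mean levels. Nfkbia stood at 1524 CPM in neutrophil-gated cells of the first sham library, 4126 and 2564 in mild, 3067 and 6299 in moderate, and 8992 and 9127 in severe. This was beyond the spread above the next gates, endothelial cells (1272 ± 395 CPM, SD, n = 4), dendritic cells (1293 ± 546 CPM, SD, n = 3) and macrophages/microglia (1227 ± 691 CPM, SD, n = 8), which did not differ beyond theirs. Nfkbiz was highest in neutrophils (276 ± 126 CPM, SD, n = 7) and macrophages/microglia (191 ± 93.4 CPM, SD, n = 8), with a step beyond the spread down to dendritic cells on the log2 scale (7.41 against 6.14). In mean CPM the next gate was T cells/NK cells (97.6 ± 82.7 CPM, SD, n = 7), which did not differ from macrophages/microglia by more than the SD of the latter. Tnfaip3 was highest in neutrophils (34.7 ± 28.2 CPM, SD, n = 7) and T cells/NK cells (33.5 ± 27.4 CPM, SD, n = 7), which overlapped. Nfkb1 had another order and was led by B cells (200 ± 101 CPM, SD, n = 3), T cells/NK cells (135 ± 89.5 CPM, SD, n = 7) and dendritic cells (132 ± 33.0 CPM, SD, n = 3).
Within libraries, neutrophils exceeded macrophages/microglia in Nfkbia (log2 difference 2.27, SE 0.25), Tnfaip3 (1.32, SE 0.36), Nfkbiz (0.87, SE 0.26) and Nfkb1 (0.57, SE 0.19), so that all 6 members tested in this pair were called higher by edgeR, at a background of 63.5%. Nfkb1 lost its call when only library size was used for scaling (0.34) and without either mild library (0.54 and 0.49). T cells/NK cells were higher than macrophages/microglia in Tnfaip3 (0.77, SE 0.29) and Nfkb1 (0.87, SE 0.16) and lower in Nfkbiz (-1.29, SE 0.24). The call for Tnfaip3 was lost without either moderate library or the first severe one (0.55 to 0.74). B cells were higher in Nfkb1 alone of the 6 tested members (1.02, SE 0.28), a call lost without either severe library (0.94 and 1.14). Dendritic cells were lower in 5 members and higher in Nfkb1 (0.51, SE 0.20), with 34.2% of genes called, and DESeq2 kept the call of Nfkbiz alone (-1.91, SE 0.22).
Oligodendrocytes were lower in each of the 6 members tested, with 74.9% of genes called. Their precursors were lower in 5 of 6 under both scalings (71% of genes called), whereas Tnfrsf1a was lower with the default scaling (-0.31, SE 0.12, edgeR adjusted p = 0.0356) and higher with library size alone (0.45), which moved the median gene of this pair from -0.10 to 0.66. Without either moderate library that Tnfrsf1a difference was not called (-0.27 and -0.24). Fibroblasts, higher in Tnfrsf1a, were lower in the other 5 members tested. Astrocytes were lower in 6 of 7, the exception being Tnfrsf1a (-0.32, SE 0.25, edgeR adjusted p = 0.364). Tnf, Tnfrsf1b and Tnfaip3 had a UMI in 1, 2 and 4 of 91 astrocyte-gated cells. They met the filter on low counts through the macrophage/microglia sums. Their calls are therefore not set against the background of 36.2% of genes called. Tnfrsf1b and Tnfaip3 were also rare in oligodendrocytes (39 and 31 of 3999 cells with a UMI) and precursors (27 and 37 of 2108). The astrocyte call for Tnf (-3.47) was lost with library size alone (-2.61) and without the second severe library (-0.74). It rests on 1 Tnf UMI in the astrocyte gate. In the erythroid gate no member was called by edgeR at a background of 2.32% (none at an unadjusted p under 0.05, and 2 by DESeq2), although Nfkbia was read there at no more than 23.6 CPM in libraries with at least 20 cells. The median gene of that comparison was shifted by -1.21 on the log2 scale, and by -5.63 with library size alone, so no direction is given for its members.

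**Figure D2:**
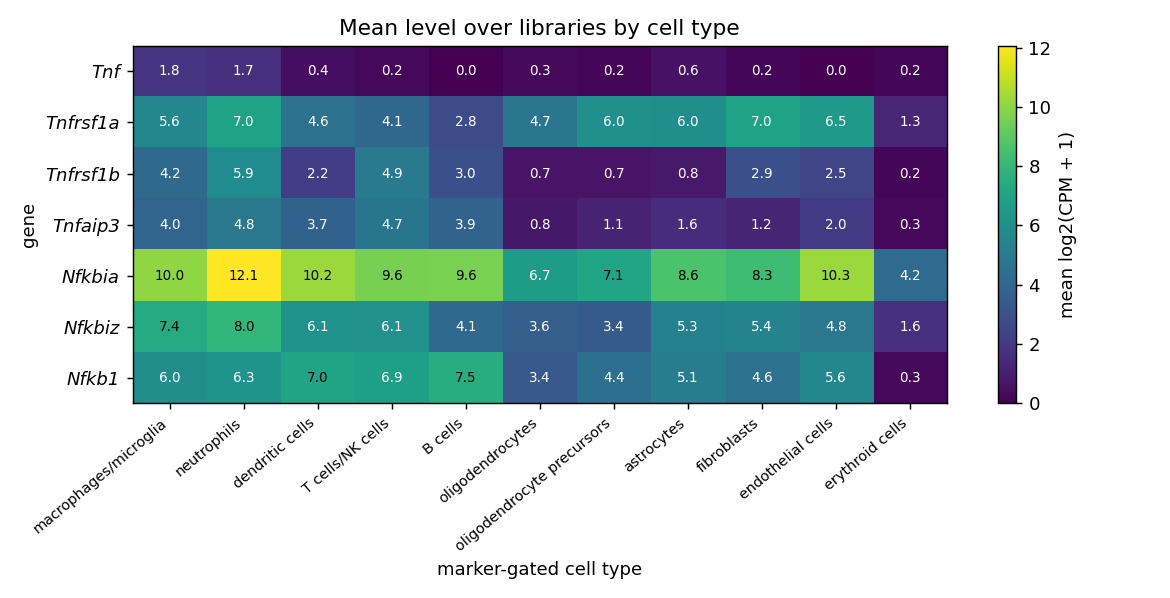
Heat map of the mean over libraries of log2(CPM + 1), with the 7 genes as rows and 11 gates found in at least 3 libraries as columns; colour and the printed number give the level. Neutrophils lead in Tnfrsf1a, Tnfrsf1b, Tnfaip3, Nfkbia and Nfkbiz, and B cells lead in Nfkb1.

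Within the macrophage/microglia gate, Tnfaip3, Nfkbiz and Nfkb1 were higher in cells rich in microglia markers than in cells rich in macrophage markers. Tnfaip3 stood at 5.43 and 24.4 CPM in microglia-marker-rich cells of the sham libraries, 26.8 and 31.2 in mild, 106 in the first moderate and 63.4 in the second severe library. In macrophage-marker-rich cells of those libraries it stood at 6.19, 11.8, 5.63, 10.7, 19.9 and 31.3 CPM, lower in all but the first sham library. The log2 difference of macrophage-marker-rich minus microglia-marker-rich cells was -1.42 (SE 0.24, edgeR adjusted p = 0.000517, n = 6 libraries).
Nfkbiz showed the same direction, with 92.2, 268, 375, 268, 639 and 286 CPM in the microglia-marker-rich cells against 46.4, 164, 120, 114, 212 and 191 CPM. It was lower in the macrophage-marker-rich cells of every one of the 6 libraries (log2 difference -0.99, SE 0.15, edgeR adjusted p = 0.000214). Nfkb1 was lower there as well (-0.72, SE 0.11, edgeR adjusted p = 0.000251). Tnfrsf1a (-0.11), Tnfrsf1b (0.28) and Nfkbia (-0.43, SE 0.23) did not pass the test, and 38.8% of genes were called. Tnf had too few UMIs for this test. It was read at 1.36, 7.15, 4.46, 1.25, 1.63 and 19.2 CPM in the microglia-marker-rich cells against 0.516, 1.24, 0.398, 0.376, 0.698 and 19.9 CPM in the macrophage-marker-rich cells. The second severe library, with most of the Tnf, thus had the opposite order to the other 5 (18.3% against 23.7% of cells with a Tnf UMI), and in 4 of those 5 the microglia-marker-rich value rests on 1 or 2 UMIs.
Immediate early and dissociation genes moved with this contrast. Of 11 measured, 10 were lower in macrophage-marker-rich cells (median log2 difference -1.01, against -0.02 over all genes tested), and their summed level was 5962 to 20299 CPM in the microglia-marker-rich cells against 4290 to 10053 CPM in the macrophage-marker-rich cells. Their part in the difference of Tnfaip3 and Nfkbiz was not tested.

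**Figure D3:**
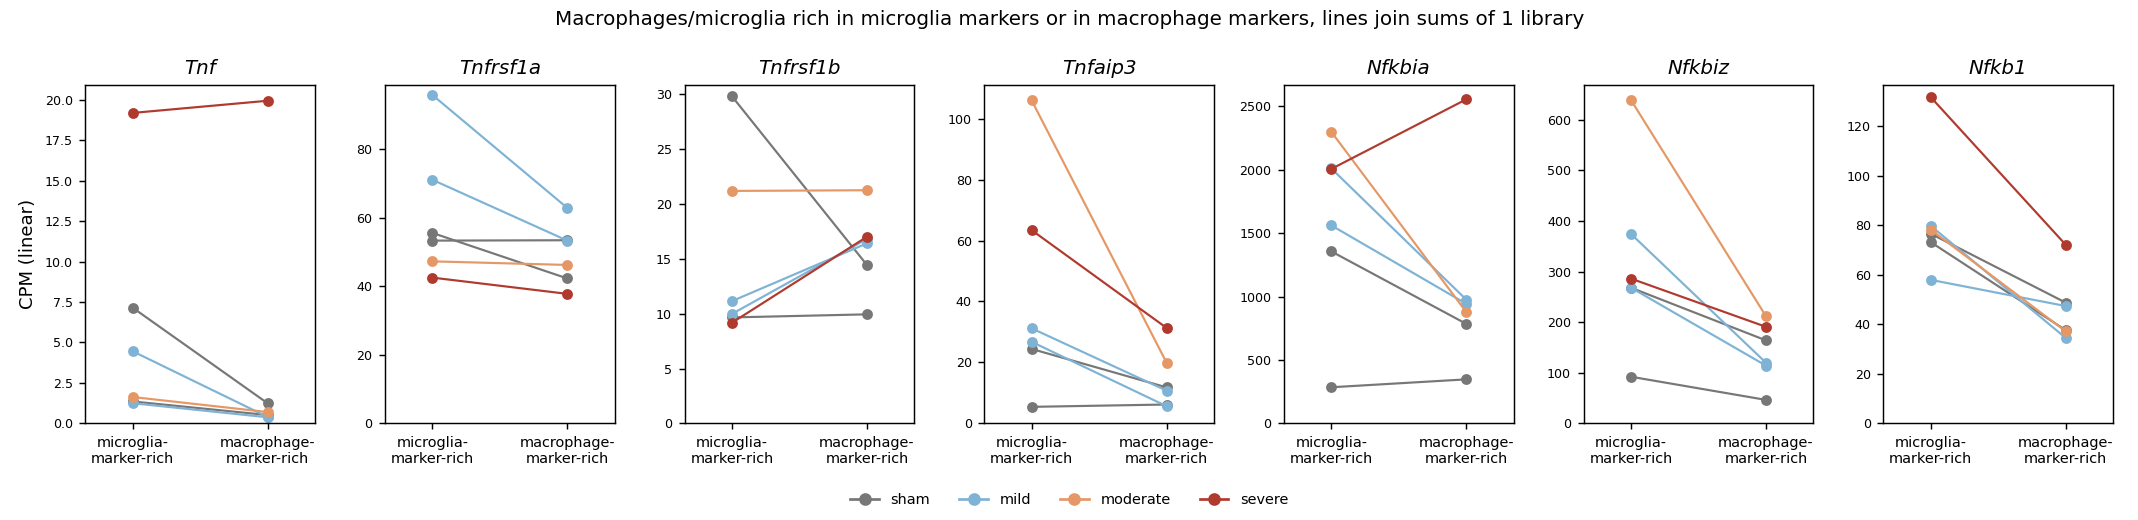
Levels of the 7 genes in CPM, each on its own linear axis from 0, in microglia-marker-rich and macrophage-marker-rich cells, with lines joining the subsets of 1 library. The lines for Nfkbiz fall from the microglia-marker-rich to the macrophage-marker-rich cells in all 6 libraries.

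With injury severity, Tnf separated the severe from the mild libraries in macrophage/microglia-gated cells. The level was on average 13.4 CPM in severe against 0.536 CPM in mild, a 24.9-fold difference, and the groups did not overlap. For this and the other separations of groups reported here, the share of all genes that separate likewise is not given. They are therefore read as a description of the libraries. In the fit over all 4 groups the log2 difference was 5.08 (SE 0.91, edgeR adjusted p = 0.0262), and Tnf was the 1 member called at a background of 3.12% of genes. The difference was 4.11 to 5.63 when any mild or severe library was left out, and the call was then lost each time (edgeR adjusted p from 0.05078 to 0.225). The second severe library carried 1344 Tnf UMIs in this gate and the first 128.
None of the 7 members passed the edgeR threshold in this gate for mild, moderate or severe against sham, where 10.7%, 5.55% and 12.6% of genes were called. At an unadjusted p under 0.05 there were 1, 1 and 4 members, and DESeq2 called 1, 1 and 3. The sham libraries were far apart for several members. Nfkbia stood at 321 and 1185 CPM in sham, 1066 and 1041 in mild, 1018 and 713 in moderate, and 1999 and 2473 in severe. Both severe libraries were higher than the other 6 in Nfkbia (log2 difference to sham 1.98, SE 0.61, edgeR adjusted p = 0.0672). For Tnf the severe libraries lay above both sham libraries (2.32, SE 0.81, edgeR adjusted p = 0.0917), and the mild ones below both (-2.76, SE 0.86, edgeR adjusted p = 0.0702). The difference of mild to sham turned to 0.0799 without the second sham library, and the first sham value rests on 3 UMIs.
The other members gave smaller differences of severe minus sham on the log2 scale. They were 0.86 (SE 0.25, edgeR adjusted p = 0.0565) for Tnfrsf1b, 1.12 (SE 0.44) for Nfkb1, 1.08 (SE 0.72) for Tnfaip3 and 0.62 (SE 0.60) for Nfkbiz. Tnfrsf1a gave 0.17 (SE 0.26) with the default scaling and -0.32 when only library size was used. That scaling moved the median of all genes from -0.10 to -0.60 in severe against sham and from -0.05 to -0.46 in severe against mild, so differences in this gate are read relative to the median gene.
The make-up of the gate moved with the groups. The summed level of the macrophage subset markers was 4998 and 2727 CPM in sham and 9543 to 16742 CPM in the injured libraries, and that of the microglia subset markers was 1088 and 2667 CPM in sham against 243 to 693 CPM. Neutrophil markers in the gate summed to 3069 and 141 CPM in sham and 613 to 1052 CPM in the injured libraries, with at most 2 of 14 markers at 0 in any library.

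**Figure D4:**
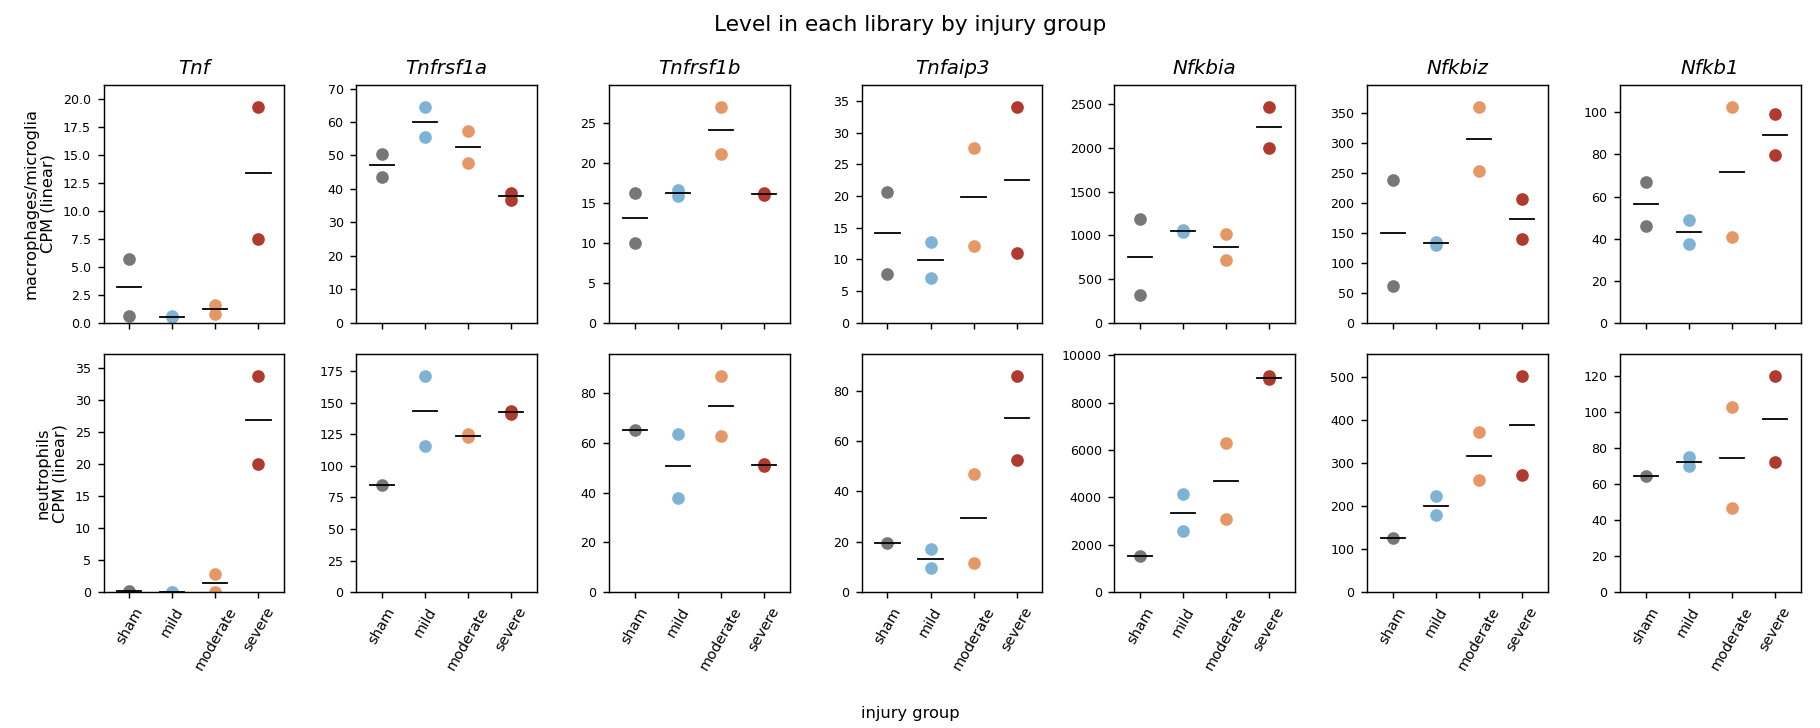
Levels of the 7 genes in CPM, each on its own linear axis from 0, in macrophage/microglia-gated (upper row) and neutrophil-gated cells (lower row), with 1 point per library and a line at the group mean. Both severe libraries stand highest for Tnf and Nfkbia in both gates.

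The comparison was repeated in the macrophage-marker-rich cells alone, a step added after the values of the whole gate were seen. Tnf stood there at 0.516 and 1.24 CPM in sham, 0.398 and 0.376 in mild, 0.698 and 1.55 in moderate, and 6.15 and 19.9 in severe. It rose in severe against mild by 5.52 (SE 0.68, edgeR adjusted p = 0.0032, 6.37% of genes called) and kept that call under every alternative tried. Against sham it rose by 4.27 (SE 0.86, edgeR adjusted p = 0.0259, 5.08% of genes called), a call lost without the first sham library (3.82), without the second severe library (3.09), without the 7.7% of cells with the most UMIs (4.26) and when the other 2 groups were left out of the fit (4.14). The sham values of this subset rest on 1 and 4 Tnf UMIs.
Nfkbia stood at 347 and 785 CPM in sham, 976 and 943 in mild, 879 and 711 in moderate, and 2011 and 2556 in severe. The severe libraries were above the other 6, and the difference to sham was 2.45 (SE 0.45, edgeR adjusted p = 0.0184), which lost its call without the second severe library (2.21) and with 2 groups in the fit (2.34). No other member was called in this subset, and none was called in its mild or moderate libraries against sham (3.17% and 0.401% of genes called) or in mild microglia-marker-rich cells against sham (0.0249%). At an unadjusted edgeR p under 0.05 there were 0, 2 and 0 members in these 3 comparisons, and DESeq2 called 0, 1 and 0.

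In neutrophil-gated cells, Tnfaip3 and Nfkbia were called in severe against mild at a background of 6.33% of genes. Tnf was called as well, but it met the filter on low counts through the severe libraries alone. The first sham and the second moderate library held 4 Tnf UMIs each. Its call is therefore not set against that background. Tnf had 117 UMIs in the severe libraries and none in the mild, where 3 UMIs over the group would have been 0.729 CPM. By that floor Tnf was at least 35.2-fold higher in severe (25.6 CPM over the group). The bound pools the libraries of a group and covers counting error only, not the spread between libraries. Tnfaip3 stood at 19.5 CPM in the first sham library, 9.58 and 17.1 in mild, 11.7 and 46.9 in moderate, and 52.6 and 85.8 in severe. The severe libraries did not overlap with the mild ones (log2 difference 2.86, SE 0.56, edgeR adjusted p = 0.0177).
Nfkbia, whose values are given above, rose by 1.83 (SE 0.44, edgeR adjusted p = 0.0357). Nfkbiz did not pass (1.36, SE 0.40, edgeR adjusted p = 0.0665), with 178 and 223 CPM in mild and 502 and 273 CPM in severe. The receptors had differences of 0.37 (SE 0.30) for Tnfrsf1a and 0.44 (SE 0.35) for Tnfrsf1b, neither of which was called, and the median gene here differed by 0.39 between the default scaling and library size alone. All 3 calls were lost without either mild library. The values were then 2.37 and 3.23 for Tnfaip3 and 2.19 and 1.53 for Nfkbia, and the Tnf bound rests on both mild libraries. Nfkbia also lost its call without the first severe library (1.75), under library size scaling (1.44) and with a stricter gate (1.78). A comparison with sham was not made, since 1 sham library held enough of these cells. Depth moved with the groups here: the median was 818 and 862.5 UMIs per cell in mild against 1591.5 and 1664.5 in severe, and its part in these differences was not tested.

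Other gates gave 7 calls among the members. In oligodendrocyte precursors Nfkbia stood at 37.2 and 97.2 CPM in sham, 98.0 and 101 in mild, 180 and 252 in moderate, and 347 and 212 in severe. The moderate and severe libraries lay above all sham and mild ones. The log2 difference to sham was 1.58 in moderate (SE 0.39, edgeR adjusted p = 0.0299, 6.4% of genes called) and 2.31 in severe (SE 0.40, edgeR adjusted p = 0.00466, 10.8% of genes called), and severe exceeded mild by 1.81 (SE 0.35, edgeR adjusted p = 0.00946, 6.44% of genes called). The difference of severe to sham held its call under every alternative that could be run. That of at least 100 cells could not, since the sham libraries held 46 and 60 of these cells. The first sham value rests on 12 UMIs. The difference to mild lost it without either mild library (1.78 and 1.77) and without the first severe one (1.47), and that of moderate to sham without the first sham library (1.10), without the second moderate library (1.41) and with 2 groups in the fit (1.56). The erythroid gate of the severe libraries was at 9.84 and 22.9 CPM, the first from 2 UMIs. With library size alone, the median gene of that gate was shifted by -5.63 on the log2 scale against macrophages/microglia. Its values therefore set no limit on free RNA in the precursor gate, whose part was not tested.
In oligodendrocytes Nfkbiz stood at 3.04 and 6.23 CPM in sham, 12.3 and 11.6 in mild, 28.7 and 34.6 in moderate, and 7.95 and 12.3 in severe. All injured libraries exceeded both sham libraries, and the moderate ones were highest. The second sham value rests on 3 UMIs and the first severe value on 10. The log2 difference to sham was 1.80 in mild (SE 0.40, edgeR adjusted p = 0.0318, 7.07% of genes called) and 2.98 in moderate (SE 0.41, edgeR adjusted p = 0.0106, 6.69% of genes called). Tnfrsf1a rose in mild oligodendrocytes as well, from 9.90 and 24.9 CPM in sham to 46.4 and 39.7 CPM (1.69, SE 0.40, edgeR adjusted p = 0.0386). Macrophage/microglia markers had a median score, on the log2 scale used for gating, of 0.219 in the oligodendrocyte gate and 1.97 in their own. Nfkbiz was likewise most frequent in the moderate libraries of macrophage/microglia-gated cells thinned to 1000 UMIs (21.7% and 24.6%). There the second sham library stood at 20.1% and the mild ones at 11.8% and 12.2%. The part of free RNA in these oligodendrocyte differences was not tested. The first sham library held 1152 oligodendrocyte-gated cells and the second 39. Without the first the values were 0.89 and 2.07 for Nfkbiz in mild and moderate and 0.75 for Tnfrsf1a, and none was called.
The mild calls of Nfkbiz and Tnfrsf1a were also lost without any mild or moderate library (Nfkbiz 1.71 to 1.85, Tnfrsf1a 1.49 to 1.78), and that of Nfkbiz in moderate without the second moderate library (2.89). With the replicate number as a block, Nfkbiz (1.72) and Tnfrsf1a (1.65) in mild oligodendrocytes and Nfkbia in severe against mild neutrophils (1.82) were no longer called. In endothelial cells Nfkbiz rose from 8.26 and 21.3 CPM in sham to 66.4 and 47.7 CPM in severe (2.55, SE 0.50, edgeR adjusted p = 0.0435, 1.32% of genes called). The sham values rest on 13 and 6 UMIs. That call was lost without the first sham library (1.67) or the first severe library (2.34), under library size scaling (2.27), without limits on UMIs and genes (2.30) and with a stricter gate (2.47). No member was called in severe against mild in T cells/NK cells (4.19% of genes called, 2 members at an unadjusted edgeR p under 0.05) or fibroblasts (3.71%, none), and DESeq2 called none in either. The same held by edgeR for oligodendrocytes in severe against sham (1.24% of genes called) and against mild (2.71%), with 2 members each at an unadjusted p under 0.05 and 0 and 1 called by DESeq2, and for mild precursors against sham (4.32%), with none by either measure.

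A test of the difference itself set the change of severe against mild in other gates against that in macrophages/microglia (edgeR, library as a block). It called 2 members in T cells/NK cells (Nfkbia and Nfkbiz, 2.26% of genes called), 2 in oligodendrocytes (Nfkbiz and Nfkb1, 3.79%) and 2 in oligodendrocyte precursors (Nfkbiz and Nfkb1, 5.97%). In all 6 the change was lower than in macrophages/microglia. The test was run under the default settings only, so its dependence on single libraries, scaling or gates is not known. In T cells/NK cells its p-values rest on a spread pooled over genes, not on that of each gene between libraries.

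Cells with a Tnf UMI carried more of the feedback transcripts than cells without one. This was examined in macrophage/microglia-gated cells of 5000 to 20000 UMIs in the 6 libraries with at least 20 such Tnf-positive cells, and Tnf itself was left out since it defined the contrast. Nfkbiz stood at 311, 277, 447, 816, 302 and 335 CPM in the positive cells of the second sham, second mild, first and second moderate, and first and second severe libraries. In the negative cells of the same libraries it stood at 231, 138, 253, 358, 172 and 222 CPM. It was higher in the positive cells of 6 of 6 libraries (log2 difference 0.74, SE 0.08, edgeR adjusted p = 0.000556).
Nfkbia stood at 1632, 2145, 1560.1, 1416, 2705 and 3298 CPM against 1179.7, 1103, 1018, 735, 2397 and 2663 CPM, again higher in 6 of 6 (0.51, SE 0.08, edgeR adjusted p = 0.00637). Tnfaip3 stood at 29.6, 33.8, 65.1, 25.2, 17.2 and 50.1 CPM against 21.1, 14.3, 27.4, 11.8, 14.8 and 38.5 CPM, likewise higher in 6 of 6 (0.64, SE 0.14, edgeR adjusted p = 0.0364). The call for Tnfaip3 was lost without the second sham, the second mild or either moderate library (0.53 to 0.69), whereas those for Nfkbiz and Nfkbia held under every alternative that could be run. The exact sign-flip permutation p was 0.03125 for each of the 3, the smallest that 6 libraries can give.
The receptors and the subunit did not pass: Tnfrsf1a differed by -0.26 (SE 0.11, edgeR adjusted p = 0.345), Tnfrsf1b by 0.30 (SE 0.19) and Nfkb1 by 0.33 (SE 0.11, edgeR adjusted p = 0.224). The background was 1.32% of 9617 genes called. Depth was not fully matched, with medians of 10563.5 to 15778.5 UMIs in the positive and 9441 to 15273 UMIs in the negative cells. The microglia subset markers summed to more in the positive cells of all 6 libraries (374 to 3394 CPM against 234 to 2744 CPM), and the part of either in these differences was not tested.

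**Figure D5:**
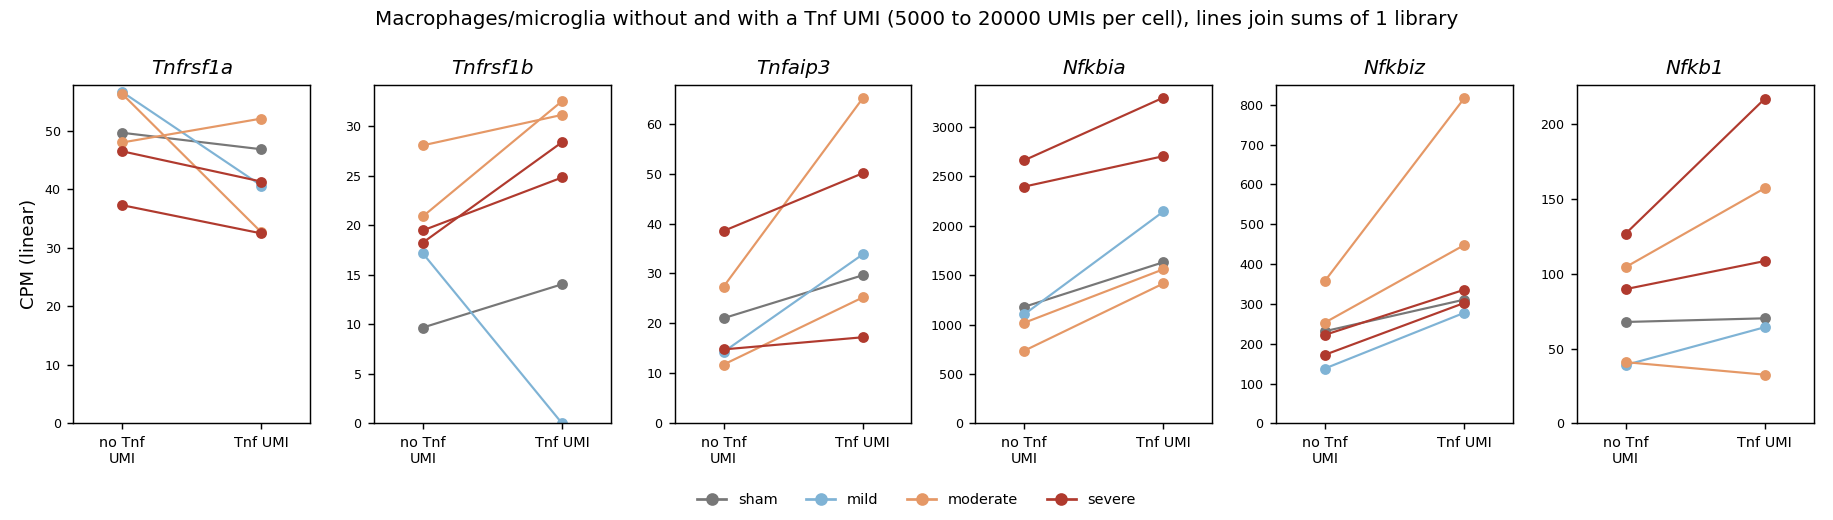
Levels in CPM, each on its own linear axis from 0, in Tnf-negative and Tnf-positive macrophage/microglia-gated cells of 5000 to 20000 UMIs, with lines joining the cells of 1 library. Nfkbiz, Nfkbia and Tnfaip3 are higher in the positive cells of all 6 libraries.

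The wider pathway was followed in lists of its other genes, each given beside all genes tested. The lists were chosen with earlier results of these data known, so their counts are a description and no independent support. In macrophage/microglia-gated cells of severe against sham, where 12.6% of genes were called and the median difference was -0.10 on the log2 scale, 2 of 4 NF-kB subunits rose (median 1.64). They were Rel (2.37, SE 0.32), the c-Rel subunit of activated leukocytes, and Nfkb2 (2.22, SE 0.43), the p100 precursor of the non-canonical arm. Of 14 other inhibitor and feedback genes, 5 rose and 1 fell (median 0.88). Those that rose included Nfkbib, which encodes IκBβ (2.88, SE 0.34), the RNase gene Zc3h12a (2.59, SE 0.50) and the A20-binding Tnip1 (1.33, SE 0.25). Of 21 target genes, 7 rose and none fell (median 1.68), led by the neutrophil chemokine Cxcl1 (4.93, SE 0.79), the cytokine Il1b (4.11, SE 0.93) and the stress gene Gadd45b (3.68, SE 0.53).
Against mild, with 3.12% of genes called and a median of -0.05, 6 of 21 targets rose (median 2.06), including Cxcl1 (3.45, SE 0.74) and Cxcl2 (2.67, SE 0.37), as did Rel (2.09, SE 0.32) and Nfkbib (2.14, SE 0.33). Of 17 adaptors and kinases, 3 were called against sham and 1 against mild, and the 3 tested genes of the ligand and shedding list were not called. Of 11 immediate early genes, Egr1 and Jun fell in severe against sham and none rose.
In neutrophil-gated cells of severe against mild, with 6.33% of genes called and a median of -0.03, 11 of 19 targets rose and none fell (median 2.45). Il1b (4.01, SE 0.48), Cxcl1 (3.61, SE 0.41) and the macrophage inflammatory protein gene Ccl3 (3.33, SE 0.59) led them. Of 14 inhibitor and feedback genes 6 rose (median 1.49), among them Ier3 (2.02, SE 0.49), Bcl3 (1.83, SE 0.40) and Nfkbib (1.55, SE 0.33). Among 14 adaptors and kinases, the NF-kB-induced Birc3 (3.13, SE 0.49) and Traf1 (3.04, SE 0.60) rose with Chuk, an IκB kinase gene, while Tradd, the adaptor of TNFR1, fell by 1.33 (SE 0.33).
In Tnf-positive against Tnf-negative cells, 12 of 20 targets were higher and none lower (median 0.52 against -0.02 over all genes). Cxcl10 (1.54, SE 0.24), Il1a (1.08, SE 0.15) and Ccl4 (1.07, SE 0.09) led. Of 14 inhibitor and feedback genes 3 were higher, namely Nfkbid, Ier3 and Zc3h12a, and none of 14 adaptors and 4 subunits was called. Of 11 immediate early genes, Egr1 was higher and Hspa1b lower.

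Across cell types and libraries, the members did not form a single pattern. Over 64 sums of 13 gates, Pearson's r of log2(CPM + 1) was highest between Nfkbia and Nfkbiz (0.81) and lowest between Tnfrsf1a and Tnfaip3 (0.004). Sums of 1 library share its depth and free RNA, so these values are a description. Among 2739 genes with a mean of at least 50 CPM, the profile most like that of Nfkbia was Map3k8 (r = 0.88), that of Nfkb1 was Baz1a (0.90) and that of Tnfrsf1a was P4ha1 (0.86). Tnf was nearest to Ftl1 (0.69), Ccrl2 (0.62) and Il1b (0.61), Tnfrsf1b to Gmfg (0.85), Tnfaip3 to Snx20 (0.86) and Nfkbiz to Cyba (0.83).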

How the data were processed

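The deposited files held raw UMI counts per gene and cell for 8 libraries of rat spinal cord. According to the labels and the file headers, the authors made these counts with Cell Ranger against Rnor_6.0; the headers name version 5.0.1 and the study's supplementary methods version 6.0.1. Depth was 31482153 to 131045446 counts per library. The study states 56287 cells after its filter; the files held 68658, of which 60135 passed the limits used here (mitochondrial share at most 10%, UMIs and genes within 2 SD of the library mean). Cells were gated by 13 marker lists scored as mean log2(1 + counts per 10000): at least 3 markers detected and the second-best list at most 2 in 3 of the best. Other cells were left out as mixed or as having too few markers. This rule was set after the cell numbers were seen, and no doublet caller was run. Close to that ratio lay 517 of 28144 macrophage/microglia-gated cells inside it and 406 outside. Inside it were also 49 of 168 dendritic-gated cells and 282 of 2108 cells gated as oligodendrocyte precursors. Counts were summed per gate and library (at least 20 cells).
The 7 genes were looked up by symbol, and they and the lists were chosen with earlier results of these data known; named beyond them are the 3 called genes of each list with the largest change and a mean of at least 20 CPM, and the 3 genes most like each member. Sums were tested with edgeR 4.0.16 (TMM, filterByExpr, quasi-likelihood test, Benjamini-Hochberg over all genes, threshold 0.05), over all 4 groups in 1 fit for injury and with the library as a block within libraries. Alternatives included DESeq2 1.42.0, other filters, gates and scaling, and leaving out each library. The test across injury groups was tested on simulated data for macrophages/microglia, severe against mild: of the genes changed by 1, 2, 3 and 4 on the log2 scale 38%, 98%, 100% and 100% were called, with 6 unchanged genes called of 13502. Intervals are Wilson 95% intervals and cover counting error only. Differences between cell types can be compared within a library only as far as free RNA, which was not removed, allows.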

Additional observations from a re-analysis of the deposited data

Results flagged for a closer look

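The change of severe against mild differed between macrophages/microglia and 3 other gates for some members, by a test of the difference itself (edgeR, library as a block, 6 libraries), which was added after the values were seen. In T cells/NK cells Nfkbia stood at 1389 and 922 CPM in mild and 1171 and 719 CPM in severe, while in macrophages/microglia it stood at 1066 and 1041 CPM and at 1999 and 2473 CPM. The change was lower by -1.54 on the log2 scale in T cells/NK cells (edgeR adjusted p = 2.24e-07). For Nfkbiz in T cells/NK cells, with 98.6 and 111 CPM in mild and 57.3 and 39.8 CPM in severe, it was lower by -1.62 (edgeR adjusted p = 0.00056), at a background of 2.26% of genes called. The p-values in T cells/NK cells rest on a spread pooled over genes. They do not measure the spread of each gene between the libraries.
In oligodendrocytes the change relative to macrophages/microglia was -1.02 for Nfkbiz (edgeR adjusted p = 0.0444) and -2.20 for Nfkb1 (edgeR adjusted p = 0.00278), with 3.79% of genes called. Nfkb1 stood there at 12.5 and 10.4 CPM in mild and 6.36 and 6.62 CPM in severe. In oligodendrocyte precursors it was -2.58 for Nfkbiz (edgeR adjusted p = 0.0133) and -1.66 for Nfkb1 (edgeR adjusted p = 0.00318), with 5.97% of genes called. The median gene lay at -0.21 in the oligodendrocyte test and at 0.14 in that of precursors. The severe Nfkbiz values of the precursors rest on 6 and 8 UMIs. Nfkbiz stood at 7.12 and 14.3 CPM in mild and at 5.70 and 1.85 CPM in severe in that gate, which did not pass the test on its own (-1.64, edgeR adjusted p = 0.148). Neutrophils (2.71% of genes called) and fibroblasts (1.49%) had no member called in this test; 4 members in neutrophils and 4 in fibroblasts had an unadjusted edgeR p under 0.05, and DESeq2 was not run for it.
Cells that entered no gate, because they had too few markers or markers of more than 1 type, also held the members. The mean of the severe libraries was 10.03 CPM for Tnf (7.55 and 12.5, against 0.205 and 0 in sham), 15.1 CPM for Tnfaip3 (10.7 and 19.6, against 3.90 and 2.72), 1848 CPM for Nfkbia (2138 and 1558, against 359 and 537), 112 CPM for Nfkbiz (140 and 84.7, against 27.3 and 43.6) and 106 CPM for Nfkb1 (151 and 61.5, against 52.3 and 51.7). For Tnf, Tnfaip3 and Nfkbia the severe libraries were above all sham, mild and moderate ones. For Nfkbiz the second severe library lay below both moderate libraries (112 and 121 CPM), and for Nfkb1 it lay below the first mild (64.8 CPM) and the second moderate library (76.0 CPM). For Tnfrsf1a and Tnfrsf1b the severe values lay between the 2 sham values. The second sham library gave 367170 UMIs in these cells and the second severe library 13118480. These differences were not tested, and the share of all genes that separate in this way was not computed. No group had enough libraries for a check of single libraries against the rest of their group.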

How the results depend on the processing

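Of 95 differences of members followed one by one (all that were called, and the uncalled ones of macrophages/microglia by injury), 1498 values under the alternatives kept their direction and side of the threshold, 102 lost a call, 36 gained one and 20 changed sign, and 4 values with no test moved beyond the spread; the cause was not tested. With 2 libraries per group, a change of 1 on the log2 scale often stays uncalled: in the simulation 38% of genes changed by 1 were called. The simulation gave all genes 1 fixed dispersion, so it sets no limit for genes whose libraries lie further apart. In such genes larger changes also stayed uncalled, as for Tnf in macrophages/microglia of mild against sham. In macrophages/microglia, the deviations of libraries with the same replicate number had correlations of -0.14 to 0.23 between groups. This check used 1 gate, so it cannot show whether replicate numbers pair the libraries. With the replicate number as a block, members called were 0, 0, 0 and 1 in macrophages/microglia (mild, moderate and severe against sham, severe against mild), 7 over the other gates and 3 over the subsets, against 0, 0, 0, 1, 10 and 3 without it.

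In macrophages/microglia, mild, moderate and severe against sham had 0 members called. DESeq2 called 1, 1 and 3, no filter on low counts 1, 3 and 4, and no limits on UMIs and genes 1 in moderate and 1 in severe. Severe against mild had 1, against 2 with DESeq2, 4 with no filter and 3 with only 2 groups in the fit. Over the other gates by injury there were 10 calls, 19 with no filter and 3 with at least 100 cells. Over the subsets by injury 3 calls became 9 with DESeq2 and 10 with no filter. Of 42 calls of the other gates against macrophages/microglia, 22 were made with at least 100 cells and 25 by the exact sign-flip permutation test. The subset pair had 3 calls and 5 with at least 100 cells. Leaving out 1 library gave 0 to 2, 0 to 2, 0 to 3 and 0 to 3 calls in macrophages/microglia, 4 to 17 over the other gates by injury, 1 to 10 over the subsets, 5 to 7 in neutrophils, 33 to 48 over the other gates against macrophages/microglia, 3 to 4 in the subset pair and 2 to 3 in Tnf-positive cells. At least 100 cells gave no value for Tnf-positive cells. The number of all genes called moved with the setting as well. In macrophages/microglia of severe against sham it was 1743 with the default scaling and 3142 with library size alone. These counts of members are therefore not read as a result about the members.

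Sign changes by leaving out 1 library were all in uncalled values of macrophages/microglia. Without the second sham library, mild against sham became 0.0799 for Tnf, 0.67 for Tnfaip3, 1.43 for Nfkbiz and 0.23 for Nfkb1, and moderate against sham 1.15 for Tnf. Without the first sham library, Nfkbia became -0.233 in mild, Tnfrsf1a -0.0929, Tnfaip3 -0.20, Nfkbia -0.595 and Nfkb1 -0.06 in moderate, and Tnfrsf1a -0.06 and Nfkbiz -0.0854 in severe. Without the first moderate library Tnfaip3 became -0.367 and Nfkbia -0.19, without the second Nfkb1 -0.464, and without the second severe library Tnfaip3 -0.0708. Over the libraries left out in turn, mild against sham ran from -3.47 to 0.0799 for Tnf, from -1.12 to 0.67 for Tnfaip3, from -0.233 to 2.03 for Nfkbia, from -0.902 to 1.43 for Nfkbiz and from -0.70 to 0.23 for Nfkb1. Moderate against sham ran from -2.41 to 1.15 for Tnf, from -0.0929 to 0.503 for Tnfrsf1a, from -0.367 to 1.60 for Tnfaip3, from -0.595 to 1.67 for Nfkbia and from -0.464 to 0.876 for Nfkb1, and severe against sham from -0.06 to 0.516 for Tnfrsf1a, from -0.0708 to 2.30 for Tnfaip3 and from -0.0854 to 2.23 for Nfkbiz. With the replicate block Nfkbiz in mild against sham became 0.11. With library size alone Tnfrsf1a became -0.32 in severe against sham and 0.45 in oligodendrocyte precursors against macrophages/microglia, and Tnfrsf1b in severe against mild -0.0151.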
